A study of Homo sapiens with 6 samples.

Results

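Replication-independent core histone variants were followed in the transcriptome of 22Rv1, an established cell line from a human prostate carcinoma. The members were the 8 rows of the deposited expression table, of 20297 genes kept, whose symbol is H2AFX, H2AFZ, H2AFV, H2AFY, H2AFY2, H2AFJ, H3F3A or H3F3B, which are older names of H2AX, H2AZ1, H2AZ2, MACROH2A1, MACROH2A2, H2AJ, H3-3A and H3-3B. The table identifies them, in the first order, as ENSG00000188486.3_3, ENSG00000164032.11_3, ENSG00000105968.18_3, ENSG00000113648.16_3, ENSG00000099284.13_2, ENSG00000246705.4_3, ENSG00000163041.9_2 and ENSG00000132475.10_3. Polyadenylated RNA was sequenced from 3 groups of 2 libraries each: cells given vehicle, cells given Drug_0120 (called 0120-0018 in the treatment notes) and cells given Drug_CN27. All groups are 22Rv1 cells, and the series describes the compounds as small molecules directed at the linker histone variant H1-10. Each compound was used at its IC50, the concentration of half-maximal effect. The labels state neither the concentration nor the time of exposure, and equal dosing cannot be assumed.

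Most histone genes are transcribed in S phase and make messages without a poly(A) tail, while the variant genes studied here make polyadenylated messages and can supply histones outside S phase. H2A.Z and H3.3 are exchanged into nucleosomes at promoters and enhancers by dedicated remodelers and chaperones, H2A.X carries the tail that is phosphorylated around DNA breaks, and macroH2A, which has a large extra domain, is known for its place in silent chromatin. H2AFZ and H2AFV encode the nearly identical proteins H2A.Z.1 and H2A.Z.2, H2AFY and H2AFY2 encode macroH2A1 and macroH2A2, and H3F3A and H3F3B encode the same H3.3 protein. H2AFX is known to make both kinds of message, of which libraries of polyadenylated RNA favour the longer one.

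Levels are TPM, a unit scaled for transcript length and for the library total, and can be compared between genes. Changes are given on the log2(TPM + 1) scale from a limma fit to all tested genes, with the standard error (SE) and the Benjamini-Hochberg adjusted p, and a gene was called at an adjusted p under 0.05. Of the 8 members, 7 passed the filter of at least 1 TPM in at least 2 libraries and were tested. H2AFJ, which encodes H2A.J, a variant known to accumulate in senescent human fibroblasts, was not tested. It was listed at 0 in the first library of each group, and at 0.0202 TPM in vehicle, 0.210 TPM in Drug_0120 and 0.0661 TPM in Drug_CN27 in the second.

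The promoters of 4 members are shown because H2AFX and H2AFZ fell with both compounds, H3F3B rose with both, and H2AFV is the partner of H2AFZ that moved less. Each line gives the 250 bases before the RefSeq transcript start, 5′ to 3′ on the gene's strand, from the GRCh38.p14 table. H2AFX lies at chr11:119095466-119095715, H2AFZ at chr4:99950276-99950525, H2AFV at chr7:44848088-44848337 and H3F3B at chr17:75779780-75780029, all on the minus strand. Capitals mark matches on either strand to CCAAT (the CCAAT box), TATAAA (the TATA box), TTTGAA (the CHR element of cell cycle genes), TTTNNCGC (an E2F-type site) or TGACG (a half-site for CREB and ATF factors).
H2AFX: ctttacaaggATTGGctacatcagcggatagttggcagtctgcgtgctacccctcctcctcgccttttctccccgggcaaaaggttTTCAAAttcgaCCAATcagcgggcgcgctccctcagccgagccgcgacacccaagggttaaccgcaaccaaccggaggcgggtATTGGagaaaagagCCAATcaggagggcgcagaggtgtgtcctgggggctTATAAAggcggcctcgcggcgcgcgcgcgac
H2AFZ: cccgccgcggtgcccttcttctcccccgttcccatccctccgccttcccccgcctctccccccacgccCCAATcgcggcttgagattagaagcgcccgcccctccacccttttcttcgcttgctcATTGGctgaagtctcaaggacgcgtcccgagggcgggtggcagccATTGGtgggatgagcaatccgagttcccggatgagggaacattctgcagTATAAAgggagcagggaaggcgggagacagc
H2AFV: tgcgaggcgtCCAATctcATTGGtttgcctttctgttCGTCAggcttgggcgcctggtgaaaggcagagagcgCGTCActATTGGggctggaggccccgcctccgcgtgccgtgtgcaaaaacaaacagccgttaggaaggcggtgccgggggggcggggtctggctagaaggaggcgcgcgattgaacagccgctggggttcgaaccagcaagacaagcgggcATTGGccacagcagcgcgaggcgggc
H3F3B: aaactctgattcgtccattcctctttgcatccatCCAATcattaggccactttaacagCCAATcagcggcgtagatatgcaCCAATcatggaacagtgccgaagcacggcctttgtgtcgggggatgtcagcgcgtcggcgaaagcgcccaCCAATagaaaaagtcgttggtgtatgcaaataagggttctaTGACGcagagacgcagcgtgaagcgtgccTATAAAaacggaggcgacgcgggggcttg

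The windows were searched from 250 bases before to 50 bases after the start, and 0 pairs of matches overlapped in the windows of the members. All 8 members had a window in the table, with 4 starts for H3F3A, 2 for H2AFY and 1 for each of the others. Of the 8 members, 5 had a window with at least 3 CCAAT matches (H2AFX, H2AFZ, H2AFV, H2AFJ and H3F3B), against 3.26% of all 35116 windows. TATAAA was found in H2AFX and H2AFZ at position -31 and in H3F3B at -29, and in 11.5% of all windows. TTTGAA was found in H2AFX, on the opposite strand at -164, and in H2AFZ at 5 bases past the start, and in 15.2% of all windows. TGACG was found in H2AFV, H3F3B and H2AFY and in 24.6% of all windows, and the H2AFY2 window held no match to any of these motifs. TTTNNCGC was found in H3F3B at 40 bases past the start, outside the bases printed, and on the opposite strand in H2AFY at -100, and in 6.89% of all windows. These matches describe letters in a window and are not evidence of binding. The motifs were chosen after the promoters were seen, and members with several starts had more windows. The shares of all windows are therefore no test of enrichment.

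**Figure D1:**
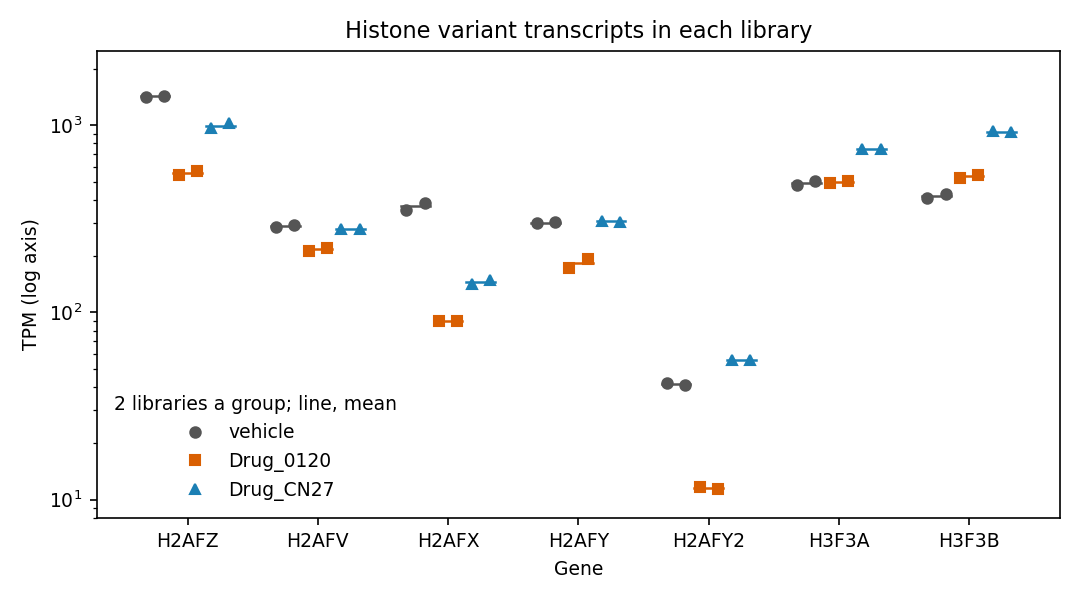
TPM of the 7 tested variant genes in each library (log axis), with 2 libraries in each of the 3 groups and a line at the group mean. H2AFX and H2AFZ are highest in vehicle, H3F3B is highest with Drug_CN27, and H2AFY2 falls to 11.6 TPM with Drug_0120 while it stands at 56.0 TPM with Drug_CN27.

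In vehicle, H2AFZ led the members at 1426 ± 3.87 TPM (SD, n = 2), the 58th highest mean of the table. It was followed by H3F3A at 490 ± 17.8, H3F3B at 419 ± 11.4, H2AFX at 369 ± 23.0, H2AFY at 302 ± 3.76 and H2AFV at 290 ± 4.09 TPM, and then by H2AFY2 at 41.5 ± 0.689 TPM. No neighbours among these 7 genes had overlapping libraries, although the nearest, H2AFY and H2AFV, were 299 and 304 against 287 and 293 TPM. With Drug_0120 the order was H2AFZ, H3F3B, H3F3A, H2AFV, H2AFY, H2AFX and H2AFY2, and the libraries of H2AFZ and H3F3B overlapped. With Drug_CN27 the order was H2AFZ, H3F3B, H3F3A, H2AFY, H2AFV, H2AFX and H2AFY2, with no overlap between neighbours.

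The targeted protein's own transcript, H1FX (H1-10), stood at 450 and 464 TPM in vehicle, 176 and 191 with Drug_0120 and 401 and 433 with Drug_CN27. H1FX was called lower with Drug_0120 (log2 change -1.31, limma adjusted p = 2.12e-07), by 0.49 after the GC correction described below, and not with Drug_CN27 (-0.13, 95% interval -0.28 to 0.01, limma adjusted p = 0.0918). The latter depended on the settings: H1FX was called lower with Drug_CN27 under median-of-ratios scaling, at -0.31, with the replicate block and without Drug_CN27 replicate 2, and the GC correction turned it to 0.0073, which was not called. TPM outside the table made up 18.1% to 19.3% of a vehicle library, 28.0% to 28.8% with Drug_0120 and 18.3% to 19.6% with Drug_CN27, and a larger outside share lowers all genes of the table together. The median tested gene moved by -0.10 with Drug_0120 and by 0.15 with Drug_CN27 on the log2 scale, and by 0.00 and -0.01 after median-of-ratios scaling. Of 10 luminal prostate markers, 9 had at least 1 TPM in every library. In bulk RNA of this cell line, a change in some of the cells and a smaller change in every cell cannot be told apart. KRT5, KRT14, CD3E and CDH5, which mark basal, T and endothelial cells, were listed at 0 throughout, while the fibroblast markers COL1A1 and LUM reached 11.6 and 23.6 TPM. The summed luminal markers moved with the groups (2408 to 2431 TPM in vehicle, about 1482 TPM with Drug_0120 and 2711 TPM with Drug_CN27), and their part in the results below was not tested.

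The first question was how the variants changed with Drug_0120. The 5 tested H2A variant genes fell and neither H3.3 gene did: of the 7 tested members 5 were called lower (H2AFX, H2AFY2, H2AFZ, H2AFY and H2AFV), H3F3B was called higher and H3F3A was not called. Limma called 81.5% of all 13606 tested genes in this comparison, 45.5% lower and 36.0% higher, so 6 called of 7 is near the background. The split over all genes, 4903 higher and 6189 lower, turned to 5872 and 5289 under quantile normalization, 5823 and 5340 with equal table sums and 5968 and 5392 after the GC correction. The median change of the tested members was -0.72 against -0.10 for all tested genes. Libraries of the groups did not overlap for 6 of the 7 members, against 90.8% of all tested genes.

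H2AFX, the DNA damage variant, was at 353 and 385 TPM in vehicle and at 89.7 and 90.6 TPM with Drug_0120. Both treated libraries were far below both vehicle libraries, at a mean that was 4.09-fold lower (log2 change -2.02 ± 0.06 SE, limma adjusted p = 2.16e-08). H2AFX had rank 730 from the most lowered of the 13606 tested genes. Removing a trend with transcript GC content, which is 66.9% for H2AFX, left a change of -1.28. MKI67, a marker of proliferating cells that moved in the same direction, was at 64.0 and 57.1 TPM in vehicle and at 6.05 and 5.32 TPM with Drug_0120, and its link to the fall of H2AFX was not tested.

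H2AFZ, the main H2A.Z gene of these cells, was at 1423 and 1429 TPM in vehicle and at 542 and 573 TPM with Drug_0120. The groups were far apart, with a mean 2.56-fold lower (log2 change -1.35 ± 0.06 SE, limma adjusted p = 1.06e-07). Its partner H2AFV was at 287 and 293 TPM in vehicle and at 214 and 222 TPM with Drug_0120. This smaller fall, without overlap of the groups, was -0.41 ± 0.05 SE on the log2 scale (limma adjusted p = 7.77e-05), and with quantile normalization it was -0.07 and not called.

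The macroH2A genes fell to unequal degrees. H2AFY was at 299 and 304 TPM in vehicle and at 173 and 194 TPM with Drug_0120, a log2 change of -0.72 ± 0.06 SE (limma adjusted p = 9.20e-06) that was -0.40 with quantile normalization. H2AFY2, which started lower, was at 42.0 and 41.0 TPM in vehicle and at 11.7 and 11.5 TPM with Drug_0120. Its mean was 3.59-fold lower in TPM, and the log2 change was -1.76 ± 0.06 SE (limma adjusted p = 4.87e-08).

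The H3.3 genes went another way. H3F3B was at 411 and 427 TPM in vehicle and at 525 and 545 TPM with Drug_0120, so both treated libraries were above both vehicle libraries. The rise was 1.28-fold (log2 change 0.35 ± 0.05 SE, limma adjusted p = 0.000256), or 0.65 on the log2 scale after the GC correction. H3F3A was at 477 and 502 TPM in vehicle and at 491 and 502 TPM with Drug_0120. These groups overlapped, and the log2 difference of 0.02 (95% interval -0.10 to 0.14, limma adjusted p = 0.733) was not called. H3F3A was called higher by 0.20 when table sums were set equal and by 0.29 with quantile normalization, so its change with Drug_0120 depends on the scaling.

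**Figure D2:**
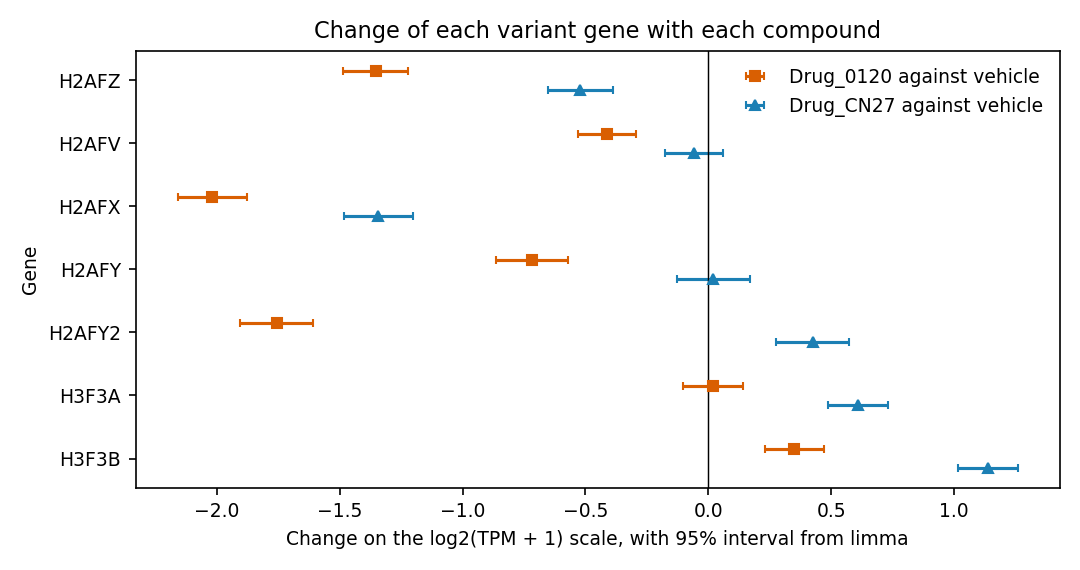
Change of each tested variant gene against vehicle on the log2(TPM + 1) scale, with 95% confidence intervals from limma (2 libraries a group), for Drug_0120 (squares) and Drug_CN27 (triangles). The H2A variants lie at -0.41 or below with Drug_0120, and H3F3B lies above 0 with both compounds, at 0.35 and 1.14.

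The second question was the same for Drug_CN27. Both H3.3 genes and H2AFY2 rose, H2AFX and H2AFZ fell, and H2AFV and H2AFY were not called. Limma called 70.4% of all tested genes here, 43.7% higher (5948 genes) and 26.6% lower (3624 genes; median-of-ratios scaling gave 4503 higher against 4809 lower), against 5 of the 7 tested members, and the median change was 0.02 for the tested members and 0.15 for all tested genes. Libraries of the groups did not overlap for all 7 tested members, against 84.6% of all tested genes. Both compounds were compared with the same vehicle libraries, so the comparisons with vehicle are not independent of each other.

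H3F3B rose from 411 and 427 TPM in vehicle to 931 and 916 TPM with Drug_CN27. The treated libraries were at 2.20 times the vehicle mean (log2 change 1.14 ± 0.05 SE, limma adjusted p = 8.08e-07), rank 707 from the most raised of the tested genes. H3F3A was at 477 and 502 TPM in vehicle and at 747 TPM in both Drug_CN27 libraries. This rise, also without overlap, was 1.53-fold (log2 change 0.61 ± 0.05 SE, limma adjusted p = 1.81e-05), and after the GC correction it was 0.36. H2AFY2 rose from 42.0 and 41.0 to 56.0 TPM in both libraries (log2 change 0.42 ± 0.06 SE, limma adjusted p = 0.000443), or by 0.25 with median-of-ratios scaling.

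H2AFX fell from 353 and 385 TPM in vehicle to 141 and 148 TPM with Drug_CN27. Its mean was 2.55-fold lower (log2 change -1.34 ± 0.06 SE, limma adjusted p = 7.90e-07), rank 295 from the most lowered of the tested genes. MKI67 was at 13.5 and 12.4 TPM in the same libraries. H2AFZ was at 962 and 1026 TPM with Drug_CN27 against 1423 and 1429 TPM in vehicle. The groups did not overlap, and the log2 change was -0.52 ± 0.06 SE (limma adjusted p = 7.17e-05).

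H2AFV and H2AFY stayed close to vehicle. H2AFV was at 287 and 293 TPM in vehicle and at 279 and 278 TPM with Drug_CN27 (log2 difference -0.06, 95% interval -0.17 to 0.06, limma adjusted p = 0.345). It was called lower with median-of-ratios scaling, at -0.24, and after the GC correction, at -0.20. H2AFY was at 299 and 304 TPM in vehicle and at 307 and 305 TPM with Drug_CN27 (log2 difference 0.02, 95% interval -0.13 to 0.17, limma adjusted p = 0.789). The direction of this small difference turned with median-of-ratios scaling, to -0.16, and after the GC correction, to -0.083.

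The compounds were also set against each other, with the limit on doses given above. The libraries of these groups did not overlap for all 7 tested members, against 87.0% of all tested genes. All 7 tested members were called higher with Drug_CN27 than with Drug_0120, against 75.2% of all tested genes called in either direction and 51.7% called higher. The calls over all genes were 7034 higher and 3200 lower, or 5101 and 5254 with median-of-ratios scaling, with which 6 of the 7 members were called, each higher. H2AFY2 differed most, with 56.0 TPM in both Drug_CN27 libraries and 11.7 and 11.5 TPM with Drug_0120. The difference in H2AFY2 was 2.18 ± 0.06 SE on the log2 scale (limma adjusted p = 6.87e-08), rank 218 from the highest, and it lay between 1.87 and 2.27 under the 17 alternatives. H2AFY2 was below vehicle in both Drug_0120 libraries and above vehicle in both Drug_CN27 libraries.

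Among the other members the log2 difference between the compounds was 0.83 ± 0.06 SE for H2AFZ, 0.79 ± 0.05 SE for H3F3B and 0.74 ± 0.06 SE for H2AFY. It was 0.68 ± 0.06 SE for H2AFX, 0.59 ± 0.05 SE for H3F3A and 0.35 ± 0.05 SE for H2AFV. The lowest values under the alternatives were 0.53 for H2AFZ, 0.44 for H3F3B, 0.42 for H2AFY and 0.29 for H3F3A, all of them called. H2AFX was at 0.05 after the GC correction (limma adjusted p = 0.291), and H2AFV was at 0.05 with median-of-ratios scaling (limma adjusted p = 0.449) and 0.02 with quantile normalization (limma adjusted p = 0.698). The calls of H2AFX and H2AFV between the compounds therefore depended on how the libraries were scaled.

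**Figure D3:**
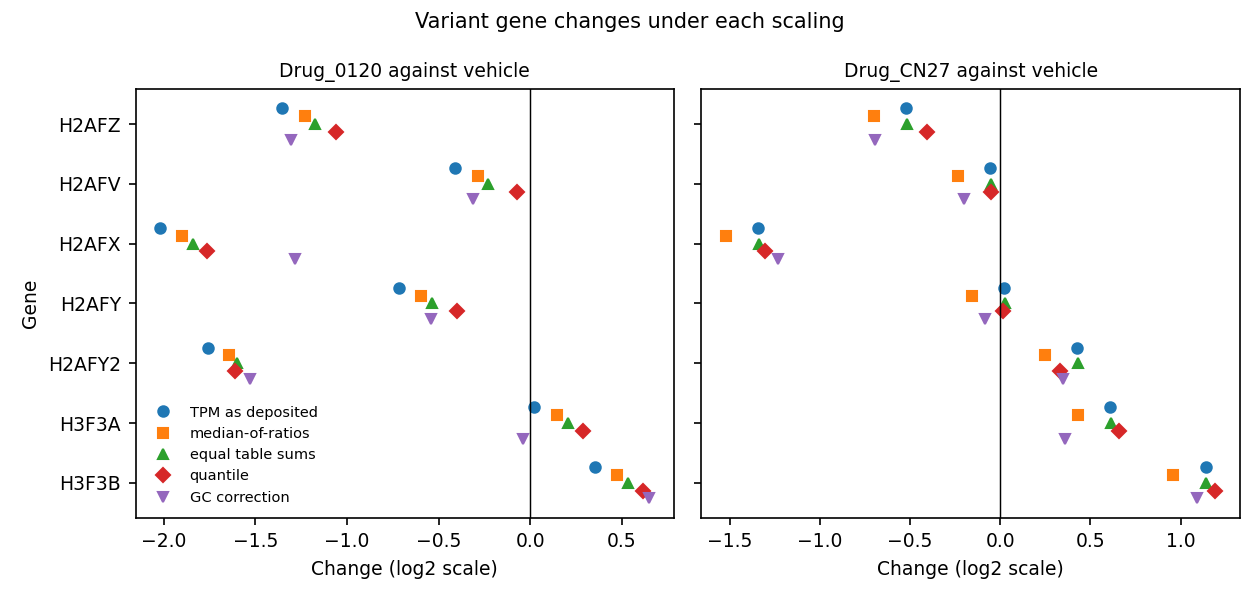
Log2 change of the 7 tested variant genes against vehicle with TPM as deposited and under 4 other scalings (markers), for Drug_0120 (left) and Drug_CN27 (right). H2AFX with Drug_0120 moves from -2.02 to -1.28 with the GC correction, and the small changes of H3F3A with Drug_0120 and of H2AFY with Drug_CN27 cross 0.

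TPM of paralogous genes can be added, and a share within a pair does not depend on a single scaling factor of a library. The H3.3 genes together stood at 888 and 929 TPM under vehicle, 1015 and 1047 TPM with Drug_0120 and 1678 and 1664 TPM with Drug_CN27. The part of these from H3F3B was 46.1 ± 0.232% in vehicle, 51.9 ± 0.237% with Drug_0120 and 55.3 ± 0.281% with Drug_CN27 (SD, n = 2). H3F3B was thus the lesser of the pair in both vehicle libraries and the greater in all 4 treated libraries.

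The H2A.Z genes together stood at 1710 and 1722 TPM under vehicle, 756 and 795 TPM with Drug_0120 and 1242 and 1304 TPM with Drug_CN27. H2AFZ made up 83.1 ± 0.160% of them in vehicle, 71.9 ± 0.293% with Drug_0120 and 78.1 ± 0.815% with Drug_CN27. The macroH2A genes stood at 341 and 345 TPM under vehicle, 184 and 206 TPM with Drug_0120 and 363 and 361 TPM with Drug_CN27. H2AFY made up 87.9 ± 0.309%, 94.0 ± 0.532% and 84.5 ± 0.0532% of them in the same order.

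In none of these 3 pairs did the libraries of any 2 groups overlap in share. With 2 libraries a group an exact two-sided permutation test cannot go below p = 0.333, which all 9 comparisons of shares reached, so none can pass (adjusted p = 0.333). Per 100 TPM of the H2A variant genes there were 37.4 ± 0.679 TPM of the H3.3 genes in vehicle, 97.2 ± 1.86 with Drug_0120 and 93.9 ± 3.13 with Drug_CN27. The sum of the H2A variant genes was 2428 ± 34.0 TPM in vehicle, 1061 ± 43.1 TPM with Drug_0120 and 1780 ± 48.2 TPM with Drug_CN27. The H3.3 ratio of both treated groups thus stood far above that of vehicle, on a similar level, while the sums that form it differed.

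**Figure D4:**
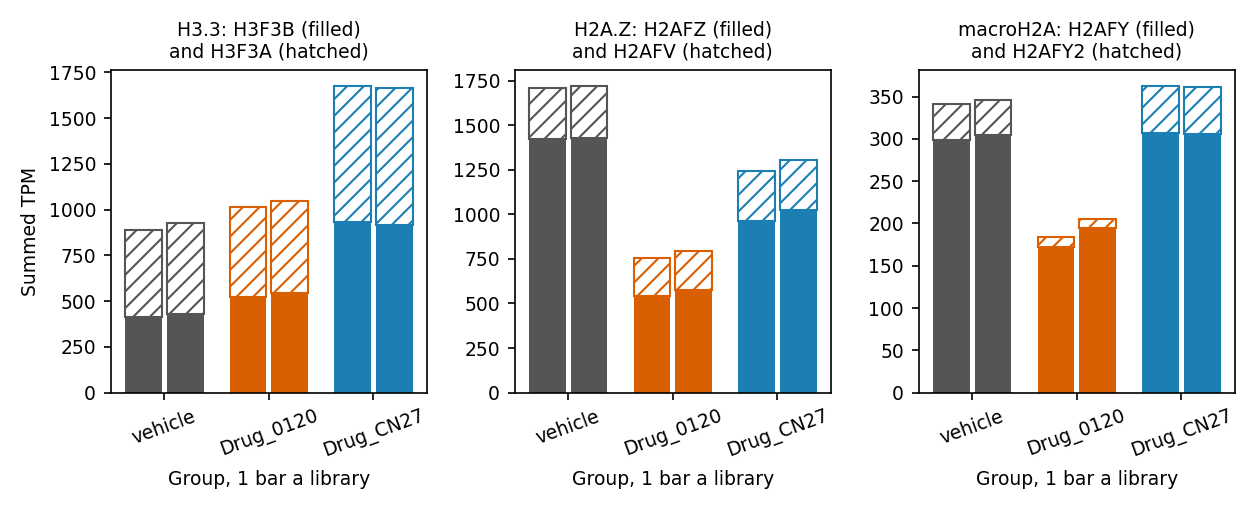
Summed TPM of the paralogous pairs in each library (1 bar a library), with the H3.3, H2A.Z and macroH2A pairs from left to right. The H3.3 bars are tallest with Drug_CN27, at 1678 and 1664 TPM, and the H2A.Z bars are shortest with Drug_0120, at 756 and 795 TPM. In the macroH2A bars H2AFY2 (hatched) is at 11.7 and 11.5 TPM with Drug_0120, against 42.0 and 41.0 TPM in vehicle.

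Genes with near-identical copies can share reads, so sequence similarity was measured. Between the coding sequences of H3F3A and H3F3B, 88 of 411 bases differed, and the longest run shared by their GENCODE 29 transcripts was 14 bases. For H2AFZ and H2AFV, 76 of 387 bases differed and the longest shared run was 23 bases, and for H2AFY and H2AFY2 it was 17 bases. GENCODE 29 names 6 pseudogenes of H3F3A, 6 of H2AFZ, 2 of H3F3B and 1 of H2AFV. The values of these genes are uncertain to that extent, since the rule for reads matching several places is not stated in the labels.

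The genes whose profile over the 6 libraries lay nearest to each member, by Euclidean distance of log2(TPM + 1) values from the vehicle mean among 10648 genes with a mean of at least 5 TPM, were found as a description. For H2AFZ they were HOXB13 (distance 0.035), PFKM (0.11) and MXD3 (0.11). For H2AFX they were RANBP1 (0.14), TBCD (0.15) and NEURL1B (0.17). For H2AFV they were C1orf115 (0.081), VAC14 (0.083) and KLHL25 (0.087), and for H2AFY they were RAB3IL1 (0.068), HDAC3 (0.084) and IMMP2L (0.086).

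For H2AFY2, which fell with Drug_0120 and rose with Drug_CN27, the nearest were ENO2 (0.10), GPR153 (0.17) and NRBP2 (0.20). For H3F3A they were CIRBP (0.059), WDR91 (0.090) and FBXO7 (0.099), and for H3F3B they were ZNF620 (0.079), EXOSC1 (0.082) and IFNGR2 (0.12). HOXB13, a prostate lineage factor, changed by -1.37 and -0.51 on the log2 scale with Drug_0120 and Drug_CN27, against -1.35 and -0.52 for H2AFZ. ENO2, a glycolytic enzyme, changed by -1.75 and 0.44, against -1.76 and 0.42 for H2AFY2.

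The factors that place and remove these variants were described from 5 lists, to be read against the 81.5% and 70.4% of all tested genes called with Drug_0120 and Drug_CN27. The 7 genes of H3.3 deposition by the HIRA and DAXX-ATRX chaperones went both ways: 4 rose and 3 fell with Drug_0120, and 3 rose and 3 fell with Drug_CN27. Their median log2 changes were 0.23 and 0.15, against -0.10 and 0.15 for all tested genes. ATRX, the remodeler that works with DAXX, was at 16.3 and 13.5 TPM under vehicle, 4.63 and 3.95 TPM with Drug_0120 and 23.1 and 20.2 TPM with Drug_CN27. The ATRX libraries did not overlap between groups, and it was called lower with Drug_0120 (-1.58 ± 0.12 SE, limma adjusted p = 2.92e-06) and higher with Drug_CN27 (0.51 ± 0.12 SE, limma adjusted p = 0.00444).

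HIRA, the scaffold of the main H3.3 chaperone complex, fell with Drug_0120 by 0.65 on the log2 scale, from 64.1 ± 1.04 to 40.5 ± 2.04 TPM, while its partner UBN2 rose from 7.78 ± 1.04 to 14.0 ± 1.39 TPM. Both were called in the same direction with Drug_CN27 (log2 change -0.47 for HIRA and 0.32 for UBN2). For UBN2 this call was near the threshold (limma adjusted p = 0.0401). It was lost under some alternatives, among them median-of-ratios scaling, quantile normalization and no filter on low values. With Drug_CN27 the chaperone DAXX fell from 86.9 ± 3.07 to 59.2 ± 0.433 TPM and ASF1A, which hands H3.3 to HIRA, rose from 23.6 ± 0.818 to 36.4 ± 3.56 TPM. DAXX was also called lower with Drug_0120 (log2 change -0.33) and ASF1A also higher (0.33). This call of DAXX was lost under some alternatives, among them quantile normalization and the GC correction.

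Of the 20 genes of H2A.Z exchange by the SRCAP and TIP60-p400 complexes, 7 rose and 9 fell with Drug_0120, and 4 rose and 7 fell with Drug_CN27. The medians were -0.05 and 0.04. RUVBL1 and RUVBL2, ATPases shared by these complexes and INO80, had the largest falls with Drug_0120: RUVBL1 was at 211 and 219 TPM in vehicle and at 46.7 and 48.6 TPM, and RUVBL2 fell from 275 ± 14.9 to 80.2 ± 4.58 TPM. With Drug_CN27 they fell to 132 ± 0.749 and 153 ± 13.7 TPM. ANP32E, a chaperone that removes H2A.Z from nucleosomes, fell from 108 ± 7.42 to 31.4 ± 1.06 TPM with Drug_0120, and was also called lower with Drug_CN27 (log2 change -0.43). EPC1, a scaffold of TIP60, rose from 9.22 ± 0.612 to 18.8 ± 0.883 TPM with Drug_CN27. The rise of EPC1 was larger with Drug_0120, to a mean of 24.7 TPM (log2 change 1.33).

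Of the 12 genes of the INO80 remodeler, 4 rose and 7 fell with Drug_0120, and 4 rose and 5 fell with Drug_CN27, with medians of -0.29 and -0.02. The subunit gene INO80B rose with both compounds, from 43.0 ± 4.50 TPM to 79.3 ± 2.11 and 85.0 ± 3.18 TPM. MCRS1 fell with both, from 123 ± 5.60 TPM to 54.8 ± 0.268 and 82.0 ± 5.28 TPM. INO80E fell with Drug_0120, from 95.2 ± 10.1 to 50.4 ± 5.27 TPM, and INO80C fell with Drug_CN27, from 23.9 ± 0.661 to 14.4 ± 0.0757 TPM. INO80C was also called lower with Drug_0120 (log2 change -0.50), while INO80E was not called with Drug_CN27 (-0.18).

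Of the 18 genes of H2A.X damage signalling, 15 were tested. They include writers and readers of the damage mark and the phosphatase genes PPM1D, PPP4C, PPP2CA and EYA3, which act to remove it. Counts and medians over this list therefore mix these roles. With Drug_0120, 3 rose and 8 fell, and with Drug_CN27, 4 rose and 6 fell, with medians of -0.21 and 0.09. MDC1, the reader that binds phosphorylated H2A.X, was at 107 and 100 TPM under vehicle, 25.5 and 24.4 TPM with Drug_0120 and 41.3 and 41.0 TPM with Drug_CN27. These groups did not overlap, and the log2 changes of MDC1 were -2.01 and -1.31 (± 0.07 SE), beside -2.02 and -1.34 for H2AFX. PRKDC, a kinase that phosphorylates H2A.X, fell from 90.0 ± 7.41 TPM to 21.8 ± 2.14 TPM with Drug_0120 and 55.0 ± 3.02 TPM with Drug_CN27. RNF8, a ubiquitin ligase recruited by MDC1, rose from 11.1 ± 0.353 to 21.0 ± 1.99 TPM with Drug_0120 and was not called with Drug_CN27 (log2 change 0.14). RAD50, a break sensor subunit, rose from 27.8 and 26.1 to 42.5 and 36.7 TPM with Drug_CN27 and was called lower with Drug_0120 (-0.43).

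The last list held 13 genes of replication-coupled histone supply, the counterpart of the variants. All 13 were called with Drug_0120, where 81.5% of all tested genes were, 5 higher and 8 lower with a median of -0.75 against -0.10 for all tested genes, and 3 rose and 5 fell with Drug_CN27 with a median of -0.06. ASF1B, a histone chaperone of proliferating cells, was at 107 and 111 TPM in vehicle and 18.5 and 17.7 TPM with Drug_0120 (log2 change -2.52 ± 0.06 SE, limma adjusted p = 1.08e-08). It was also called lower with Drug_CN27, at 63.1 and 66.7 TPM (log2 change -0.74). CHAF1A and CHAF1B, subunits of chromatin assembly factor 1, fell with both compounds, CHAF1A from 84.8 ± 0.637 to 25.9 ± 1.85 and 44.3 ± 0.501 TPM and CHAF1B from 28.8 and 29.2 TPM to 8.95 ± 0.381 and 11.2 ± 0.750 TPM. SLBP, which binds the stem-loop of replication-dependent histone messages, fell from 194 ± 0.596 to 109 ± 8.66 TPM with Drug_CN27. It was also called lower with Drug_0120 (log2 change -0.75).

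Over the 5 lists, 23 genes rose and 35 fell with Drug_0120 and 18 rose and 26 fell with Drug_CN27, and with median-of-ratios scaling the counts were 27 and 31, and 10 and 31. Called were thus 86.6% and 65.7% of the 67 tested list genes, near the 81.5% and 70.4% of all tested genes. With the compound by which it was named, each named list gene kept its direction and call under every alternative. Apart from the lost calls given for DAXX and UBN2, calls for the other compound are from the main fit only. Of the changes that named a gene, those that shrank by more than 1.5 times under some alternative were HIRA (to -0.40) and INO80E (to -0.39) with Drug_0120, and ASF1A (to 0.32), ATRX (to 0.21) and RAD50 (to 0.25) with Drug_CN27.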

How the data were processed

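The authors deposited 1 table of TPM values per gene, with 1 column for each of the 6 libraries. The tools STAR and StringTie and the genome build hg19 are named, per the submitters' processing notes. No label states versions, annotation, strand setting or filters. How deeply each library was sequenced is unknown, as TPM does not retain it, and counting intervals are not possible. Of 20315 rows, 18 were duplicate Y-chromosome entries of pseudoautosomal genes and were dropped, and 27 symbols turned into dates were named again from their identifiers. The 13606 genes reaching 1 TPM in 2 or more libraries were analysed as log2(TPM + 1) with limma 3.58.1 in R 4.3.3 (a single fit to all 6 libraries with a mean-variance trend and no replicate block, 3 residual and 5.33 prior degrees of freedom), and p-values were adjusted by Benjamini-Hochberg over all tested genes. This log2 scale understates changes of low genes. The fit was also run on simulated libraries in which few genes changed, unlike here, and no conclusion rests on that run.

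The GC correction removed a quadratic trend with the median GC content of a gene's GENCODE 29 transcripts from each library, and 97.7% of genes had a value. The table's identifiers carry the suffix of annotation lifted to the older build, so only the RefSeq promoter windows, matched by current symbol, have coordinates. The members, lists and tests were chosen with earlier results of these data known, and the motifs after the promoters were seen. Named list genes were, per list and compound, up to 3 called genes with the largest log2 change, a mean of at least 5 TPM and groups that do not overlap. Whether replicates are separate cultures is not stated. The p-values therefore measure only how far these libraries spread, possibly for technical reasons. The level of 1 luminal marker is not reported here.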

Additional observations from a re-analysis of the deposited data

How the results depend on the processing

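The 17 alternatives covered the pseudocount, the filter on low values, scaling, GC content, the replicate block, the libraries in the fit, the trend and leaving out each library. The number of called members stayed within 1.5 times the main count under each: with Drug_0120 between 6 and 7, with Drug_CN27 between 5 and 6, and between the compounds between 6 and 7. H2AFX, H2AFZ, H2AFY2 and H3F3B kept their direction and call against vehicle under every alternative. Differences from vehicle that were not called changed sign: H3F3A with Drug_0120 was at -0.039 after the GC correction, at -0.039 with the replicate block and GC correction together and between -0.017 and 0.058 without vehicle replicate 1 or vehicle replicate 2, and H2AFY with Drug_CN27 was at -0.16 with median-of-ratios scaling, at -0.083 after the GC correction and at -0.083 with the block added; the cause was not tested. The GC correction moved the H3F3B share of H3.3 transcripts to 42.9% in vehicle and 54.8% with Drug_0120, and the H2AFZ share of H2A.Z transcripts to 83.4% and 71.5%. Libraries with the same replicate number deviated together only weakly (r = 0.11 to 0.16 across genes between groups), and with 2 numbers this does not pair them. With the replicate block 6, 5 and 7 members were called, as without it, and 11526, 10284 and 10894 of all genes, against 11092, 9572 and 10234. Unknown depth and 2 libraries a group limit all values.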

Other observations

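Other histone variant genes of the table were also measured. CENPA, the centromeric H3 variant, stood in vehicle at 28.4 and 31.4 TPM, with Drug_0120 at 4.85 and 6.70 TPM, and with Drug_CN27 at 5.09 and 4.57 TPM. Both compounds left it well below vehicle (log2 change -2.20 ± 0.14 SE and -2.41 ± 0.14 SE, limma adjusted p = 8.30e-07 and 1.87e-06), and these calls held under all 17 alternatives. H3F3C, a close copy of H3F3B whose values are therefore uncertain, was at 1.94 and 2.13 TPM under vehicle, 3.42 and 2.95 TPM with Drug_0120 and 4.74 and 6.17 TPM with Drug_CN27. H3F3C was called higher with Drug_0120 (0.46 ± 0.13 SE, limma adjusted p = 0.00941), a call lost without Drug_0120 replicate 1, and with Drug_CN27 (1.08 ± 0.13 SE, limma adjusted p = 0.000108). The H2A.B genes H2AFB1, H2AFB2 and H2AFB3, known from testis, stayed under the filter, with no library above 0.362 TPM.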
